A study of Homo sapiens with 6 samples.

Results

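Genes known to be induced by TNF or by NF-κB, outside the NF-κB subunits, AP-1 and the chemokines, were followed in PANC-1 cells with and without knockdown of CD73. They were taken from a written list of 50 symbols by matching each symbol to a gene identifier. The rule used no expression value, but the list was drawn up with earlier results of these data known. Of the 50 listed genes, 48 had a row among the 30735 genes of the files. The symbols TAP1L and REL2 matched no row. A filter of at least 1 RPKM (reads normalized to exon length and to the library total) in at least 3 of the 6 samples left 41 of them among 12527 tested genes.

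PANC-1 is an established human line grown from a pancreatic ductal carcinoma. The cells were kept in DMEM with 10% fetal bovine serum and transfected with Lipofectamine 3000, 3 samples with CD73 siRNA and 3 with negative control siRNA, and total RNA was sequenced. CD73 is the ecto-5′-nucleotidase that turns extracellular AMP into adenosine, and its gene is NT5E. The methods name a single CD73 siRNA product and a single negative control, the comparison is within 1 cell line, and the labels name no added TNF. Neither the methods nor the titles say whether the product holds 1 siRNA sequence or whether all 3 knockdown samples share it. The samples are numbered 1 to 3 in each group. The study describes them as separate knockdown experiments, while the labels do not say whether they came from separate cultures, and the p-values below measure the spread between these samples, part of which may be technical.

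TNF binding to its receptors sets off a ubiquitin-dependent cascade that activates the IκB kinases, IκB is degraded, and NF-κB dimers enter the nucleus and bind κB sites in target genes. The products include inhibitors that end the signal, factors that destroy the induced mRNAs, anti-apoptotic and stress regulators, and proteins of adhesion, matrix and membrane traffic. Many of the same genes are also induced by growth factors, serum or stress through the MAP kinases, so they report on several pathways and not on TNF alone.

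The targeted gene was checked first. NT5E stood at 3.36, 6.85 and 8.22 RPKM in CD73 siRNA samples 1, 2 and 3, and at 14.0, 13.9 and 17.1 RPKM in the negative controls. The groups did not overlap, and the knockdown left 41.0% of the control mean. Its log2 fold change on log2(RPKM + 1) was -1.23 ± 0.26 (SE), with a limma adjusted p = 0.303, and it passed the threshold of 0.01 before adjustment. The library totals behind the values lay between 15009113 and 16836207 reads. The summed level of 6 ductal epithelial markers was 71.4 to 102 RPKM in CD73 siRNA samples and 136 to 254 RPKM in the controls, with KRT8 and KRT18 as its main part and KRT7 under 1 RPKM in every sample. Of the 5 that were tested, KRT8 fell by 1.27 and KRT18 by 0.68 on the log2 scale (limma adjusted p = 0.303 for both), while KRT19 at -0.26, CDH1 at -0.12 and EPCAM at 0.03 did not pass the threshold. Of 14 markers of immune, endothelial, fibroblast, acinar and islet cells, 10 had a row, 8 of these were under 1 RPKM in all samples, and their sum was 17.5 to 31.0 RPKM with CD73 siRNA and 18.9 to 31.6 RPKM in the controls. The exceptions were COL1A1 and COL3A1. The part of the KRT8 and KRT18 shift in the results below was not tested. In bulk RNA, fewer cells of one state and less RNA per cell cannot be told apart.

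The 2 members TNFAIP2 and TRIB1 fell at an unadjusted limma p below 0.01, and 0 rose. This level follows the study, which names no test or adjustment for it. Across all tested genes 1.31% were called lower and 1.82% higher. No member passed an adjusted p of 0.05 (limma with Benjamini-Hochberg adjustment over all tested genes), which was passed by 0.00798% of the tested genes, or 1 gene. At an unadjusted p below 0.05 there were 10 of the 41 members, against 12.1% of all tested genes. A linear model without moderation called 0 of the 41 at 0.01, and 216 of all 12527 tested genes. Same-numbered samples of the 2 groups deviated together, and with the sample number as a block the calls were 7 lower (TNFAIP2, EHD1, EFNA1, ZC3H12A, GADD45B, SQSTM1 and TRIB1) and 3 higher (B4GALT1, PPP1R15A and KLF6). The block called 3.30% of all genes lower and 4.27% higher. Of 41 tested members, 7 called lower is well above the background share, and 3 called higher lies nearer to its own. The study had reported from this transcriptome that genes of TNF-α signalling were generally lower after CD73 knockdown. As the list was drawn up with results of these data known, the counts here and below are no separate support for that.

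The members leaned to lower values in CD73 siRNA samples. Of the 41 tested, 29 had a log2 fold change below 0, which is 70.7%, against 48.0% of all tested genes, and their median was -0.15 against 0.01. The filter can favour genes that are high in 1 group. Without it 32 of 48 members had a log2 fold change below 0, and their median was -0.10 against 0.005 for all genes. The share of all genes below 0 was not counted in that fit. LAMB3, PTPRE, TNC and BMP2, which only that fit included, rest on at most 15 reads a sample. All 3 same-numbered differences were below 0 for 18 members, or 43.9%, against 24.5% of all genes, and above 0 for 9 members, or 22.0%, against 27.0%. The 3 pairs were not alike. The members' median difference was -0.20 in pair 1, -0.03 in pair 2 and -0.16 in pair 3, while the median of all genes stayed between -0.00 and 0.02. In pair 2, 21 of 41 members were lower, which is 51.2% against 50.3% of all genes, whereas pairs 1 and 3 each had 28. The plot of fold changes by role shows the pair 1 mark farthest to the left for each of the 7 members called lower with the block.

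**Figure D1:**
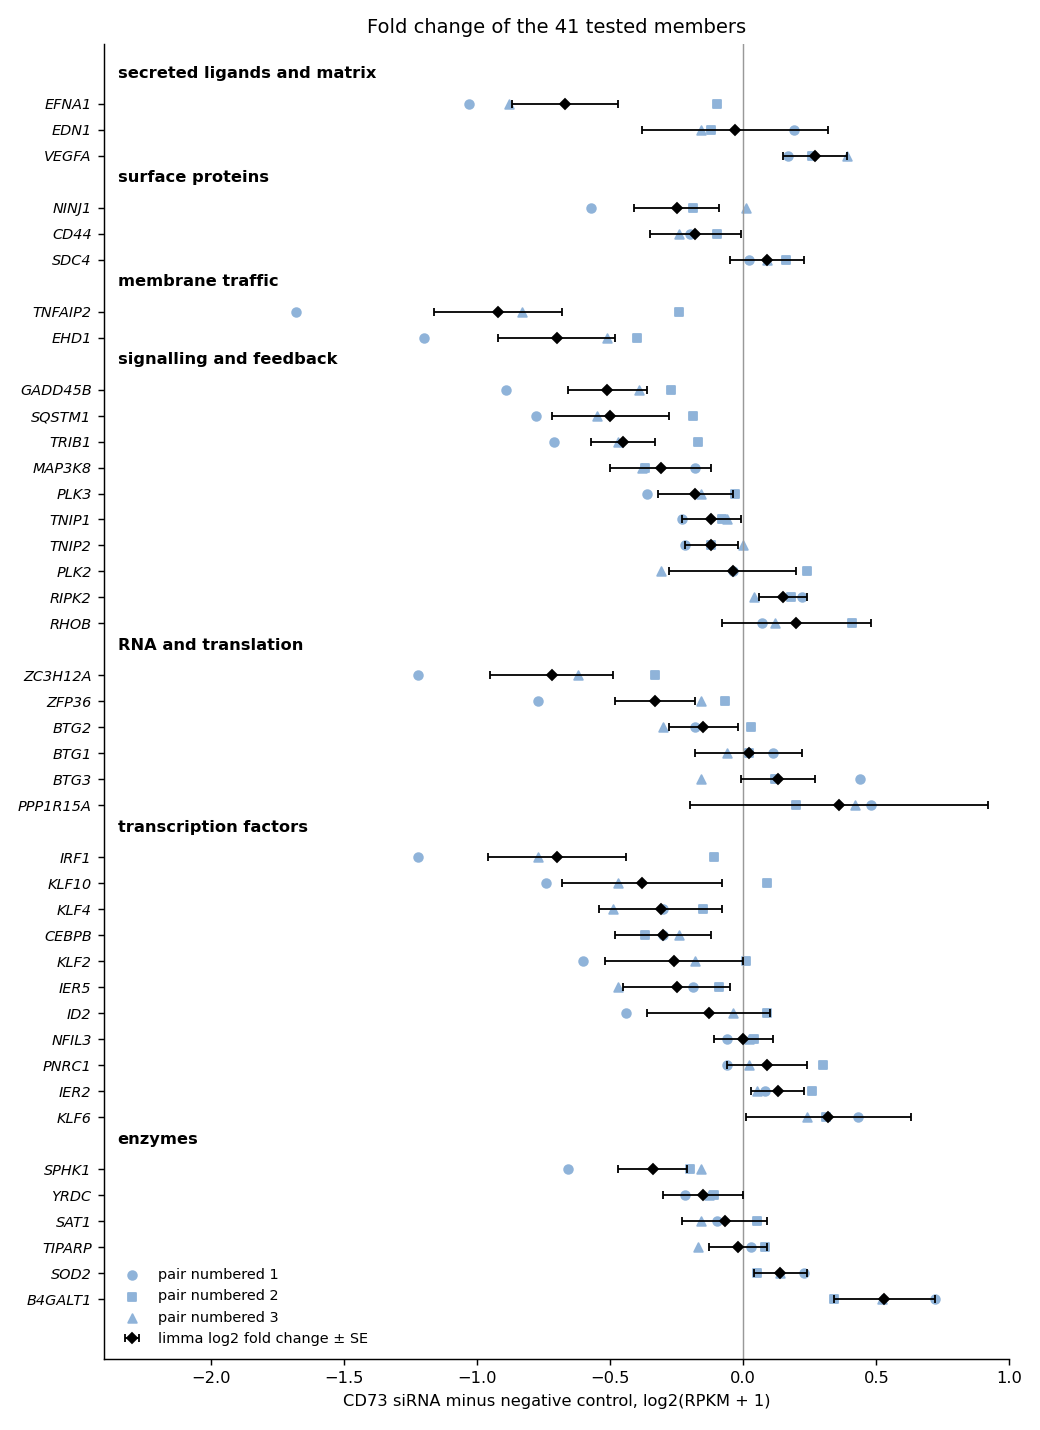
The horizontal axis gives CD73 siRNA minus negative control on log2(RPKM + 1) for the 41 tested members, grouped by role, with a black diamond and bar for the limma log2 fold change and its SE and blue marks for the differences of samples with the same number. The diamonds run from -0.92 for TNFAIP2 to 0.53 for B4GALT1, and 29 of them lie left of the line at 0.

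Of the tested members, 9 had 3 CD73 siRNA values all below the 3 control values (ZC3H12A, ZFP36, SPHK1, TNFAIP2, EHD1, EFNA1, GADD45B, TRIB1 and IRF1), and 5 had them all above (SOD2, B4GALT1, VEGFA, RIPK2 and IER2). Among all tested genes 8.07% were separated in the lower direction and 10.3% in the higher, so 9 of 41 is above the background share and 5 of 41 is close to it. For each of these genes the two-sided exact permutation test gave p = 0.1, the smallest value that 3 against 3 samples allow.

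Both members of membrane traffic were tested, and TNFAIP2 had the largest log2 fold change below 0 of all tested members. TNFAIP2 (ENSG00000185215, GRCh38 chromosome 14, 103123442 to 103137439, forward strand in GENCODE 29) encodes a TNF-induced relative of the exocyst subunit SEC6. Its level was 4.82, 7.06 and 5.60 RPKM in CD73 siRNA samples 1 to 3 and 17.7, 8.50 and 10.8 RPKM in the controls. All knockdown samples were below all controls, control 1 was far above the other controls, and the pair numbered 2 was the closest. TNFAIP2 fell by 0.92 on the log2 scale (SE 0.24, limma adjusted p = 0.303), to 47.3% of the control mean, and the call held with the block (adjusted p = 0.124). It was lost without CD73 siRNA sample 1 (log2 fold change -0.81), CD73 siRNA sample 3 (-0.90) or control 3 (-0.98). Over all samples left out in turn the log2 fold change stayed between -1.13 and -0.64.

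EHD1 (ENSG00000110047, chromosome 11, 64851642 to 64888296, reverse strand), an ATPase of endocytic recycling, stood at 11.5, 11.7 and 10.1 RPKM with CD73 siRNA and at 27.9, 15.7 and 14.8 RPKM in the controls. The knockdown values were close to each other, and control 1 lay well above the other controls. EHD1 had a log2 fold change of -0.70 ± 0.22 (SE, limma adjusted p = 0.332), which passed the threshold with the block (adjusted p = 0.113) and not without it. When controls were left out one at a time it passed too, at -0.43 without control 1, -0.82 without control 2 and -0.86 without control 3.

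Among signalling and feedback genes, 10 were tested, 8 had a log2 fold change below 0, and TRIB1 was the only one called without the block. TRIB1 (ENSG00000173334) is a pseudokinase that brings the ubiquitin ligase COP1 to its substrates. It was measured at 12.0, 14.0 and 13.9 RPKM with CD73 siRNA and at 20.3, 15.8 and 19.7 RPKM in the controls, and the groups did not overlap. TRIB1 fell by 0.45 on the log2 scale (SE 0.12, limma adjusted p = 0.305), to 71.5% of control. The call held with the block (adjusted p = 0.119). It was lost with any sample left out except control 2, with log2 fold changes of -0.38, -0.49 and -0.48 without CD73 siRNA samples 1, 2 and 3, and of -0.39 and -0.41 without controls 1 and 3, and it was also lost with values scaled to equal sums (-0.42).

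GADD45B (ENSG00000099860, chromosome 19, 2476122 to 2478259, forward strand), a stress-induced regulator of MAP kinase kinases, is one of the members whose promoter window held the κB consensus. Promoter sequences were from RefSeq (GRCh38.p14), 250 bases before to 50 after the start, for 42 members, and both strands were searched. Of the 42, 6 held the κB consensus (14.3%) against 10.8% of 27305 promoters, namely LAMB3, ID2, IRF1, MAP3K8, GADD45B and SDC4. The AP-1 site TGANTCA was in 2 of 42 (4.8%, F3 and SPHK1) against 7.8%, and the CRE TGACGTCA was in 1 (2.4%, PPP1R15A) against 2.0%. A CRE holds no AP-1 match within its own letters. The windows of 3 members with the κB consensus are printed, with the matches in capitals. GADD45B and IRF1 had log2 fold changes below 0, as did MAP3K8 at -0.31 and ID2 at -0.13. SDC4, at 0.09 ± 0.14 (SE), was the only tested one above 0. LAMB3 had lower values with CD73 siRNA but was below the filter. The printed windows end before the first transcribed base of both annotations.
GADD45B, chr19:2475952-2476121, forward strand: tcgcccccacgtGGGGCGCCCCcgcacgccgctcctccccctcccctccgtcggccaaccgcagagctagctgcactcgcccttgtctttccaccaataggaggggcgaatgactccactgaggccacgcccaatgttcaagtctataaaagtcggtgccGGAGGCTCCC
IRF1, chr5:132490799-132490873, reverse strand: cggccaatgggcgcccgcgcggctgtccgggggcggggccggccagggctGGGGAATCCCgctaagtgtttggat
SDC4, chr20:45348425-45348549, reverse strand: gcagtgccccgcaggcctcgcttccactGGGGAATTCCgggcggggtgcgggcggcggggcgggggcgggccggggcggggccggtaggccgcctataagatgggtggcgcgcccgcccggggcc

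GADD45B, with 2 matches, stood at 15.0, 18.5 and 14.8 RPKM with CD73 siRNA and at 28.7, 22.5 and 19.7 RPKM in the controls. Every knockdown value was below every control, with the least distance between knockdown sample 2 and control 3. GADD45B had a log2 fold change of -0.51 ± 0.15 (SE, limma adjusted p = 0.32), just short of the threshold, and passed it with the block (adjusted p = 0.119). It also passed without CD73 siRNA sample 2 (-0.61) and without control 3 (-0.63). Leaving out control 1 gave -0.37, short of the threshold. SQSTM1, the ubiquitin-binding scaffold p62 that takes part in NF-κB signalling and autophagy, stood at 65.7, 103 and 58.1 RPKM with CD73 siRNA and at 113, 118 and 85.4 RPKM in the controls. The groups overlapped because knockdown sample 2 was above control 3, yet each knockdown sample was below its same-numbered control. SQSTM1 had a log2 fold change of -0.50 ± 0.22 (SE, limma adjusted p = 0.415), which passed the threshold with the block (adjusted p = 0.113) and without CD73 siRNA sample 2 (-0.75). With CD73 siRNA sample 3 left out the value was -0.34 and did not pass. SQSTM1 shares exon positions with MGAT4B and MRNIP on the opposite strand, and whether the counting used strand is not given in the sources used here.

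The other signalling members did not pass the test. RIPK2, the kinase of NOD receptors, was at 23.5, 24.4 and 23.8 RPKM with CD73 siRNA and at 20.1, 21.4 and 23.1 RPKM in the controls, a log2 fold change of 0.15 ± 0.09 (SE, limma adjusted p = 0.559). Its groups did not overlap, by a margin of less than 1 RPKM. TNIP1 and TNIP2, which bind ubiquitin and restrain NF-κB together with A20, both had -0.12. MAP3K8, the kinase that couples TNF receptors to ERK, had -0.31, PLK3 had -0.18 and PLK2 had -0.04, and the small GTPase RHOB had 0.20. TNFAIP8, an anti-apoptotic TNF target, was under 1 RPKM in all samples and below the filter.

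**Figure D2:**
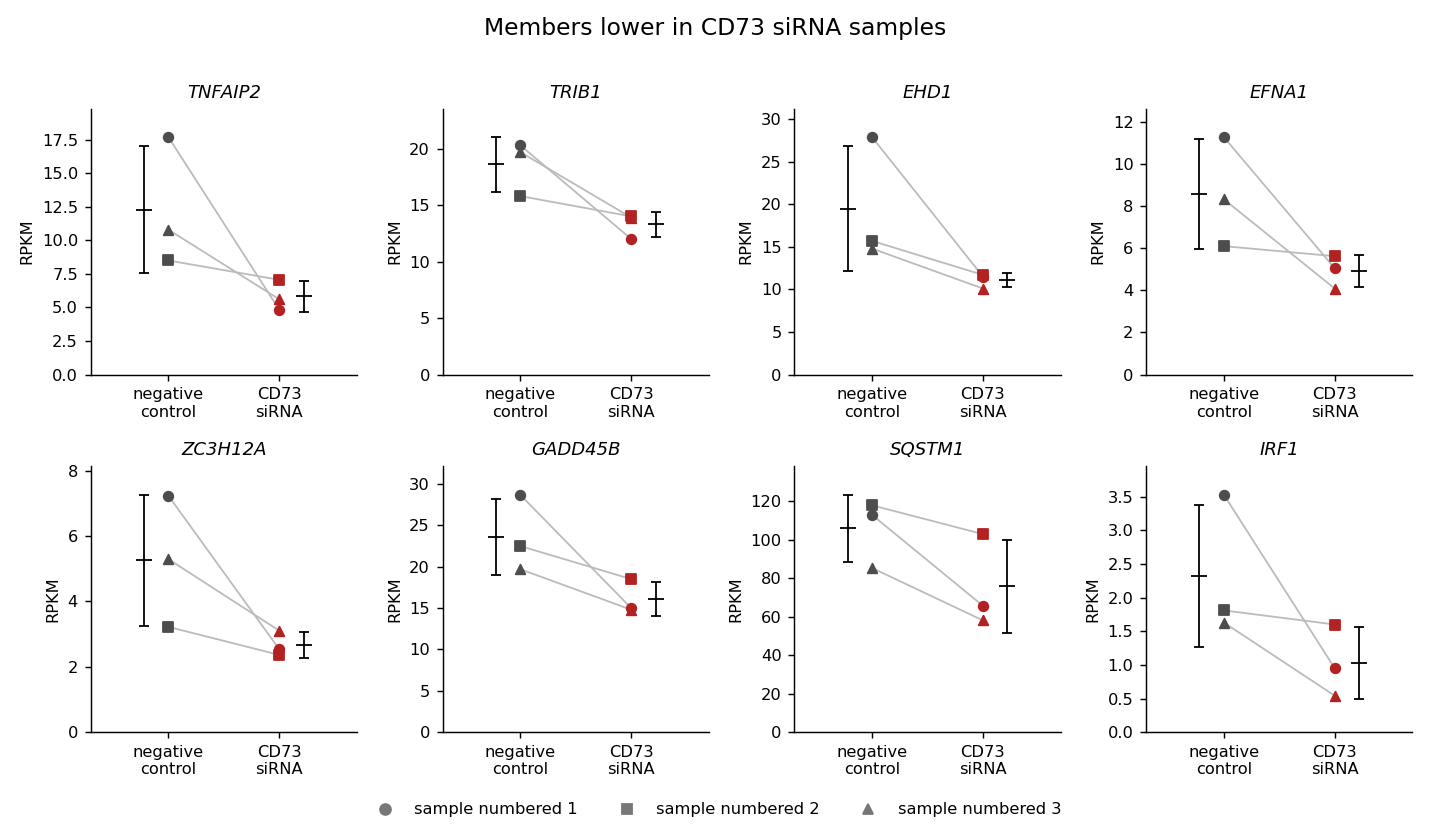
Each panel gives the level of 1 member in RPKM, on an axis from 0, in the 3 negative control samples (grey) and the 3 CD73 siRNA samples (red), with lines joining samples of the same number and bars for the mean and SD. All lines slope down in the 8 panels, and the line for number 1 is the steepest in each of the 8, TNFAIP2 dropping from 17.7 to 4.82 RPKM.

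Factors that act on mRNA and translation split. ZC3H12A, or Regnase-1, is an endonuclease that cleaves inflammatory mRNAs and restrains the response that induces it. It stood at 2.53, 2.36 and 3.10 RPKM with CD73 siRNA and at 7.23, 3.22 and 5.29 RPKM in the controls, from 116 to 362 reads a sample. The groups did not overlap, though knockdown sample 3 came close to control 2. Its log2 fold change was -0.72 ± 0.23 (SE, limma adjusted p = 0.342), which passed the threshold with the block (adjusted p = 0.116) and without control 2 (-0.98). The value was -0.50 without control 1 and did not pass. ZFP36, or tristetraprolin, which binds AU-rich elements and leads mRNAs to decay, was the most abundant of the group at 80.1, 97.4 and 87.4 RPKM against 138, 102 and 97.9 RPKM. Its groups were separated by a narrow gap, and its log2 fold change of -0.33 ± 0.15 (SE, limma adjusted p = 0.417) missed the threshold with and without the block. Without control 1 it was -0.18.

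PPP1R15A, or GADD34, is the phosphatase subunit that reverses phosphorylation of eIF2α in the stress response, and its promoter window held the only CRE match among the members, shown in capitals.
PPP1R15A, chr19:48872321-48872391, forward strand: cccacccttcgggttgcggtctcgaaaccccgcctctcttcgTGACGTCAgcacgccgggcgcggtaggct

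PPP1R15A was at 14.2, 36.1 and 10.3 RPKM with CD73 siRNA and at 9.94, 31.4 and 7.43 RPKM in the controls. Sample 2 of each group was far above the others, so the groups overlapped widely while each knockdown sample was above its same-numbered control. The fold change was 0.36 ± 0.56 on the log2 scale (SE, limma adjusted p = 0.829) without the block and 0.36 ± 0.09 with it (SE, adjusted p = 0.119), and passed the threshold with it alone. Left-out samples moved the value to -0.14 without CD73 siRNA sample 2, 0.72 without CD73 siRNA sample 3, and 0.17, 0.95 and -0.02 without controls 1, 2 and 3. Those fits had no block, so the same-numbered sample of the other group stayed in. The differences of PPP1R15A in pairs 1 to 3 were 0.48, 0.20 and 0.42. BTG1, BTG2 and BTG3, antiproliferative partners of the CCR4-NOT deadenylase, had 0.02, -0.15 and 0.13 and did not pass the test.

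Of 11 tested transcription factors, 8 had a log2 fold change below 0 and 0 were called without the block. The unmoderated model called 0 of them, and 216 of all 12527 tested genes. Of the 11, 1 had an unadjusted limma p below 0.05, against 12.1% of all tested genes. That gene was IRF1, the interferon regulatory factor whose promoter window is printed above. IRF1 stood at 0.949, 1.60 and 0.541 RPKM with CD73 siRNA and at 3.53, 1.81 and 1.63 RPKM in the controls, from 71 to 441 reads a sample. The gap between knockdown sample 2 and control 3 was narrow and the difference of pair 1 was the largest. IRF1 had a log2 fold change of -0.70 ± 0.26 (SE, limma adjusted p = 0.368), to 44.3% of the control mean, and missed the threshold with the block too (adjusted p = 0.141). It was -0.46 without control 1 and -1.13 with a pseudocount of 0.1. IRF1 shares exon positions with C5orf56 and AC116366.3 on the opposite strand.

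The Krüppel-like factors did not move as one. KLF6 was at 33.1, 61.2 and 32.3 RPKM with CD73 siRNA and at 24.4, 49.1 and 27.3 RPKM in the controls, with each knockdown sample above its same-numbered control and sample 2 the highest of both groups. Its log2 fold change was 0.32 ± 0.31 (SE, limma adjusted p = 0.704), and it passed the threshold with the block (adjusted p = 0.119) and not without it. In fits without the block the value was 0.03 without CD73 siRNA sample 2, and 0.13, 0.63 and 0.21 without controls 1, 2 and 3. The differences of KLF6 in pairs 1 to 3 were 0.43, 0.31 and 0.24. KLF10, induced by TGF-β, was at 21.7, 35.4 and 15.2 RPKM against 36.9, 33.2 and 21.5 RPKM, with differences of -0.74, 0.09 and -0.47 in pairs 1 to 3, and its log2 fold change of -0.38 ran from -0.68 to -0.10 as single samples were left out. KLF4 had -0.31 and KLF2 had -0.26. IER2 was separated upwards at 6.60, 7.05 and 6.71 against 6.21, 5.74 and 6.44 RPKM, a log2 fold change of 0.13 (limma adjusted p = 0.629), or 0.06 without both samples numbered 2. CEBPB had -0.30, IER5 -0.25, ID2 -0.13, NFIL3 -0.00 and PNRC1 0.09, and none of them passed the test. CEBPD, at 0.491 to 0.945 RPKM, was below the filter.

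**Figure D3:**
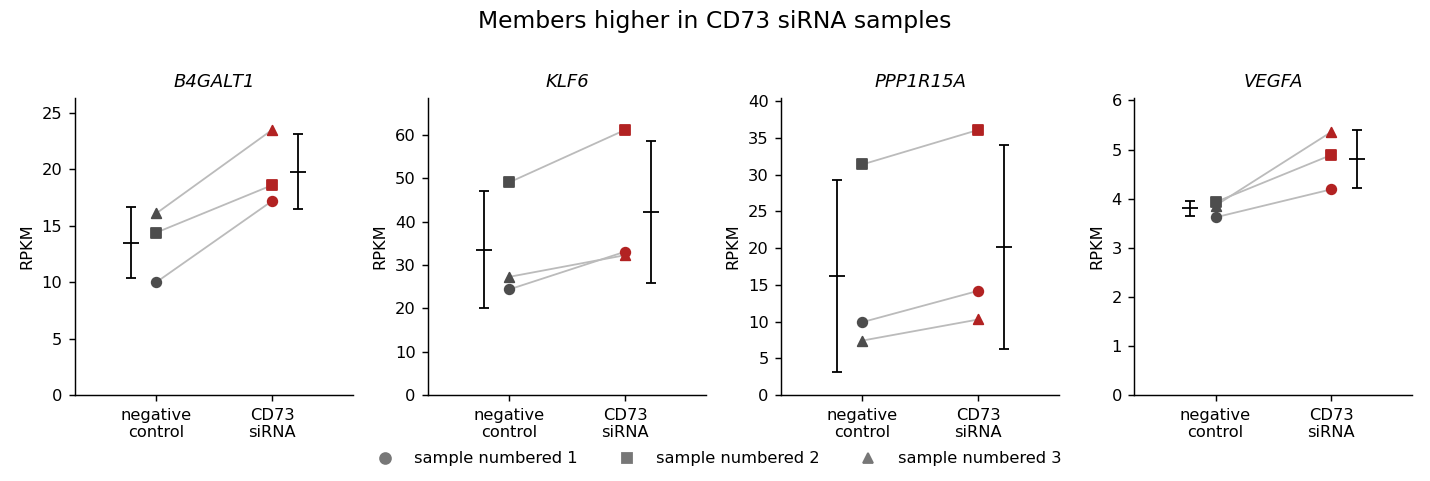
Each panel gives the level in RPKM, on an axis from 0, of 1 member in the 3 negative control samples (grey) and the 3 CD73 siRNA samples (red), with lines joining samples of the same number and bars for the mean and SD. All lines slope up, while sample 2 stands above the other samples of its group for KLF6 and PPP1R15A.

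Of 6 tested enzymes, 4 had a log2 fold change below 0. B4GALT1, the Golgi galactosyltransferase that builds N-acetyllactosamine on glycoproteins, had the largest increase of the members. It was at 17.2, 18.6 and 23.5 RPKM with CD73 siRNA and at 10.0, 14.4 and 16.1 RPKM in the controls, and the groups did not overlap. Its log2 fold change was 0.53 ± 0.19 (SE, limma adjusted p = 0.357), at 146% of control, and it passed the threshold with the block (adjusted p = 0.113). Without control 1 it was 0.34, and without control 3 it was 0.66. SPHK1, which makes sphingosine-1-phosphate, was at 4.93, 5.35 and 6.07 RPKM against 8.36, 6.29 and 6.89 RPKM, with a narrow gap between the groups and a log2 fold change of -0.34 ± 0.13 (SE, limma adjusted p = 0.378). SOD2, the mitochondrial superoxide dismutase and a textbook NF-κB target, was at 6.66, 6.81 and 6.76 RPKM against 5.56, 6.54 and 6.03 RPKM, a log2 fold change of 0.14 ± 0.10 (SE, limma adjusted p = 0.61), or 0.09 without control 1. It overlaps WTAP and a second SOD2 gene entry of GENCODE 29, and its values were not whole multiples of a read, so this level is uncertain. SAT1, of polyamine catabolism, was at 65.6, 87.4 and 60.1 RPKM against 70.4, 84.3 and 67.3 RPKM, with a 95% interval of the log2 fold change from -0.43 to 0.29. TIPARP had -0.02 and YRDC -0.15. B4GALT1, SPHK1, CD44, VEGFA and IER2 also share exon positions with a gene on the opposite strand, so their levels may include its reads.

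Surface and secreted members were the least measured, since 5 of the 11 had low values. CD44, the hyaluronan receptor and the most abundant surface member, was at 79.0, 113 and 104 RPKM with CD73 siRNA and at 91.0, 121 and 122 RPKM in the controls, a log2 fold change of -0.18 ± 0.17 (SE, limma adjusted p = 0.696) that ran from -0.32 to -0.03 as single samples were left out. As for SOD2, its values were not whole multiples of a read, so this level is uncertain. SDC4, the heparan sulfate proteoglycan with the printed κB match, was at 37.9, 46.8 and 34.3 RPKM against 37.4, 41.8 and 32.1 RPKM, a log2 fold change of 0.09 ± 0.14 (SE, limma adjusted p = 0.836). NINJ1, of adhesion and membrane rupture, had -0.25.

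EFNA1, or ephrin-A1, an anchored ligand of Eph receptors, stood at 5.05, 5.63 and 4.09 RPKM with CD73 siRNA and at 11.3, 6.11 and 8.34 RPKM in the controls. The groups did not overlap, with pair 2 the closest. EFNA1 had a log2 fold change of -0.67 ± 0.20 (SE, limma adjusted p = 0.321), to 57.2% of control. It passed the threshold with the block (adjusted p = 0.124), without control 2 (-0.87) and with values scaled to equal sums (-0.64). With control 1 left out it was -0.47 and did not pass. VEGFA, the vascular growth factor, was at 4.19, 4.89 and 5.36 RPKM with CD73 siRNA and at 3.62, 3.93 and 3.86 RPKM in the controls. All knockdown values were above the controls, and its log2 fold change was 0.27 ± 0.12 (SE, limma adjusted p = 0.409). EDN1, the precursor of endothelin-1, was at 11.4, 18.9 and 8.12 RPKM against 9.91, 20.5 and 9.21 RPKM, with a log2 fold change of -0.03 and a 95% interval from -0.83 to 0.77.

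The other 7 members were below the filter. LAMB3, a chain of laminin-332, was at 0.0531, 0.0271 and 0.0127 RPKM with CD73 siRNA and at 0.160, 0.0687 and 0.0711 RPKM in the controls, from 1 to 12 reads a sample, and PTPRE was separated in the same direction from 1 to 8 reads. TNFAIP8 was separated upwards, at 0.917 to 0.994 RPKM against 0.722 to 0.861 RPKM. TNC, the matrix glycoprotein, stood at 0.0207 to 0.0971 RPKM, BMP2 at 0 to 0.0882 RPKM, and F3, the tissue factor, at 0.389 to 1.06 RPKM. TNFAIP8 rests on 109 to 150 reads a sample, since its exons are long. The exact permutation test gave p = 0.1, its smallest value, for LAMB3, PTPRE and TNFAIP8, and p from 0.6 to 1 for CEBPD, F3, TNC and BMP2. Among tested genes 8.07% were separated in the lower direction and 10.3% in the higher. The share among genes below the filter was not counted. In limma with no filter on low values, which tested all 48 members, TRIB1 was the 1 member called, in the lower direction. That fit called 195 of 30735 genes lower and 270 higher.

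Samples numbered 2 held the highest value of both groups for 15 members, or 36.6% of the 41, against 22.7% of all tested genes. The excess of sample 2 over the mean of samples 1 and 3 was 1.50 on the log2 scale for PPP1R15A with CD73 siRNA and 1.75 in the controls, 0.88 and 0.90 for KLF6, and 0.90 and 1.03 for EDN1. The 15 members were BTG1, BTG3, EDN1, KLF4, KLF6, NFIL3, PLK2, PNRC1, PPP1R15A, RHOB, SAT1, SDC4, SOD2, SQSTM1 and YRDC. The cause of the excess was not tested. Leaving out both samples numbered 2, an alternative chosen after the data were seen, gave 5 of 41 members called lower and 0 higher, where 1.68% of all genes were called lower and 2.57% higher. It left 29 of 41 members with a log2 fold change below 0, with a median of -0.22 against 0.016 for all genes. Pair 2 had the members' median difference nearest to 0, at -0.03. A lower median without it therefore follows from the choice and is no separate evidence.

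**Figure D4:**
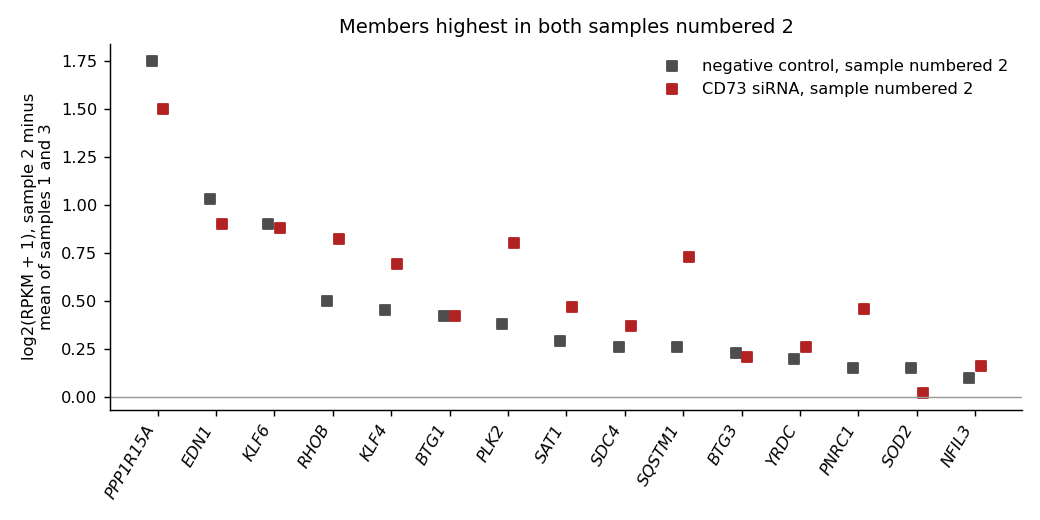
The vertical axis gives, for the 15 members whose highest value in each group was sample 2, log2(RPKM + 1) of that sample minus the mean of samples 1 and 3 of its group, in negative controls (grey) and CD73 siRNA samples (red). PPP1R15A has the largest excess in both groups, 1.75 and 1.50, and the excess of SOD2 and NFIL3 is under 0.2.

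The wider pathway was read from lists that hold the NF-κB machinery, AP-1 and immediate-early genes, and cytokines and chemokines, 85 genes of which 57 were tested. Of these, 42 had a log2 fold change below 0 with a median of -0.17, 5 were called lower (NFKBIA, NFKB2, MAP3K14, JUNB and CSF1), and TRAF3 was called higher, against 1.31% and 1.82% of all genes. With the block 12 were called lower and 1 higher, against 3.30% and 4.27%, and JUNB (limma adjusted p = 0.139) and CSF1 (adjusted p = 0.134) were no longer among them. NFKBIA, described here after its values were seen, is the IκBα inhibitor that NF-κB induces on itself. It stood at 19.2, 26.5 and 15.4 RPKM with CD73 siRNA and at 61.0, 34.8 and 37.2 RPKM in the controls, and fell by 1.07 on the log2 scale (limma adjusted p = 0.303). A further list held type I interferon-stimulated genes, of which 11 were tested. Of these, 4 had a log2 fold change below 0, against 48.0% of all genes, and their median was 0.19. In limma without the block 0 were called at 0.01, with 1 at an unadjusted p below 0.05, against 12.1% of all tested genes. With the block 1 of them was called higher, IFIT1 at 0.66 (limma adjusted p = 0.116), against 4.27% of all genes.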

How the data were processed

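The authors deposited 1 table per sample of values for 30735 Ensembl genes, normalized to gene length and library total and read here as RPKM. The unit rests on the values, since multiplied by exon length in GENCODE 29 they were whole multiples of 1 step per sample in 95.5% to 95.6% of genes under 1000 reads (tolerance 0.05 of a read). The step gave the library total and reads per gene, used for description only. The submitters' processing notes name bcl2fastq, Bowtie2 2.2.3, HTSeq 0.6.0 and hg38. Their roles, the annotation and the use of strand are not given in the sources used here. Symbols came from a name table for 30384 identifiers, and from GENCODE 29 for 219 more, which include SOD2. Of the identifiers, 132 were absent from that release.

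Log2(RPKM + 1) was compared with limma 3.58.1 (lmFit, eBayes with trend) in R 4.3.3, CD73 siRNA minus negative control, two-sided, with Benjamini-Hochberg adjustment over the 12527 genes that reached 1 RPKM in 3 or more samples. Adding 1 understates changes of low genes. A call was an unadjusted p below 0.01, a level taken from the study, which names no test or adjustment for it. Single members also had exact permutation tests. Scripts were tested on simulated data. Samples were paired by the number in their titles, a pairing that the titles do not state. Deviations from the group means correlated at 0.20, 0.48 and 0.55 for numbers 1, 2 and 3 and at most at -0.01 with another number. The latter adds no separate evidence, since deviations within a group sum to 0. Alternatives were a pseudocount of 0.1, other filters, the replicate block, no moderation, 2 scalings and samples left out. Apart from the replicate block itself, all of them were fitted without the block. The members, roles and lists were chosen with earlier results of these data known. Named were members called in either fit, separated members, the 2 highest of each role, the 3 largest changes each way, and the 3 with the widest spread of pair differences. Of 48 members, 18 share exon positions with another annotated gene.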

Additional observations from a re-analysis of the deposited data

How the results depend on the processing

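The count of members with a log2 fold change below 0 and the members' median kept their direction under every alternative run, the count between 24 and 34 of 41 and the median between -0.23 and -0.08 as single samples were left out. The number of calls did not. With the replicate block 948 genes, 10 members and 13 other pathway genes were called, against 392, 2 and 6 without it. Without moderation the counts were 216, 0 and 0, and NT5E, at -1.23, no longer passed the threshold. With no filter on low values 465 of 30735 genes, 1 member and 3 other pathway genes were called. Leaving out single samples gave 116 to 792 genes, 0 to 5 members and 1 to 14 other pathway genes, with 0 members without CD73 siRNA sample 1 or 3 and 5 without control 2. The fewest other pathway genes came without CD73 siRNA sample 1 or 3 and the most without CD73 siRNA sample 2. Leaving out both samples numbered 2 gave 532 genes, 5 members and 13 other pathway genes. Scaling to equal sums gave 113 lower and 227 higher genes against 164 and 228. As single samples were left out, the log2 fold change of EDN1 ran from -0.33 to 0.31, of PPP1R15A from -0.14 to 0.95, of SAT1 from -0.23 to 0.04 and of SDC4 from -0.03 to 0.19, and EDN1 was at 0.01 without both samples numbered 2. These fits had no block, so a single sample left out kept its same-numbered partner in the other group. Of 308 values of the 22 named and tested members under an alternative, 265 kept direction and side of the threshold, 12 lost the call, 21 gained it and 10 reversed. All 12 losses fell on TNFAIP2 and TRIB1, the 2 members called in the main fit. Most of the 265 therefore belonged to members that were not called there and stayed so. The block changed no other call among the named members than those given beside them. The causes were not tested. LAMB3, PTPRE, TNC and BMP2 rest on at most 15 reads a sample, which limits their precision.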

Other observations

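Samples numbered 2 also held the highest value of both groups for 14 of 17 tested AP-1 and immediate-early genes, or 82.4%, against 36.6% of the members and 22.7% of all genes. JUN, chosen as an example after its values were seen, stood at 23.2, 54.9 and 22.6 RPKM in CD73 siRNA samples 1 to 3 and at 24.6, 45.0 and 25.2 RPKM in the controls. Of 25 cytokines and chemokines with a row, 7 were tested. All 7 had a log2 fold change below 0, against 48.0% of all genes, with a median of -0.35. In pair 2, 4 of the 7 were lower, with a median of -0.02, and CCL5 had a mean RPKM of 104% of control. Of the 7, 1 was called lower without the replicate block, CSF1, against 1.31% of all genes. With the block 0 were called (CSF1 limma adjusted p = 0.134). CSF1 stood at 11.7, 19.7 and 16.6 RPKM with CD73 siRNA and at 41.0, 23.8 and 26.8 RPKM in the controls, so that the controls were all higher.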
